A study of Homo sapiens with 2 samples.

Results

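RUNX1 peaks were described in the interiors of very long genes, the protein-coding genes of chromosomes 1 to 22 that span at least 500 kb in the GRCh38 RefSeq gene table. A peak was taken when its summit, the position of its highest tag pileup, lay in such a gene and more than 1 kb from both of its ends. This gave 677 of the 13591 peaks in the list, or 5.06% of the 13367 peaks on chromosomes 1 to 22, in the interiors of 303 genes of 19126. The gene RUNX1 itself spans 261.5 kb in this table, so it is not a very long gene and its peaks are not among the 677.

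The peaks were mapped by ChIPseq, the sequencing of DNA precipitated with an antibody to a protein bound to it, in MCF10A. This is an established cell line of breast epithelium that does not form tumours. The cells carried a CRISPR deletion of their own RUNX1 and a lentiviral RUNX1 gene that was switched on with doxycycline, at 1 µg/ml for 24 hours, so the protein measured was the reintroduced one. Of the 2 libraries, 1 was precipitated with an antibody to RUNX1 and held 80338845 tags after duplicates were removed, and 1 was input DNA from the same kind of treated cells and held 87410774. With 1 library of each kind there are no replicates and nothing could be tested between samples, and all intervals are 95% intervals that cover counting error only. Markers of the cell line could not be checked, because a peak list holds no expression.

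RUNX1 is a transcription factor that binds a short DNA motif together with its partner CBFB, at gene starts and at distant enhancers. Very long genes consist almost entirely of introns, which can hold enhancers of the gene itself or of other genes, and many of them are known for roles in neurons, where they code for adhesion molecules, ion channels and synaptic scaffolds. Several of the longest also overlap common fragile sites, regions prone to break when DNA replication is slowed.

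Within 1 kb of a listed gene start lay 19 of the 677 summits, or 2.81%, where the share over all peaks of chromosomes 1 to 22 was 7.6%. The rule leaves out the outer ends of the very long genes, so the lower share is partly set by it. Of the 19, 7 were at an inner start of the same very long gene and 12 only at a start of another gene. An inner start is the first base of a shorter transcript that begins inside the gene, and 162 of the 303 genes had such starts, 374 in all. Only 251 of the 303 genes have any listed start, so summits at starts can be undercounted. RefSeq start windows, which run from 250 bases before to 50 after each start, held the summits of 9 of the peaks in 11 windows, 8 of protein-coding genes and 3 of long noncoding RNA genes. The letters searched on both strands were TGTGGT, the core RUNX motif, TGCGGT, its second spelling, TGANTCA, the AP-1 motif, and GGAATG, the TEAD motif. TGCGGT differs from TGTGGT in 1 letter, and none of the 4 contains another. The following 5 windows of GRCh38.p14, printed 5′ to 3′ on the strand of the start, show how the RUNX letters lie in them, and capitals mark TGTGGT or TGCGGT or their reverse complements. The first is the window with most matches, the next 3 hold the other peaks with TGTGGT, and the last holds none.
RUNX2 start inside SUPT3H, chr6:45328080-45328379, plus strand: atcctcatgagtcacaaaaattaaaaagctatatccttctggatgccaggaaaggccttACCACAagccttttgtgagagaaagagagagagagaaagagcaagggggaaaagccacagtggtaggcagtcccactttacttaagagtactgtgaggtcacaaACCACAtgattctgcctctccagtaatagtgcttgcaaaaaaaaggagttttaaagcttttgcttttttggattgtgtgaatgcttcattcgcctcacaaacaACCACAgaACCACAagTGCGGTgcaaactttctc
ARHGAP24 inner start, chr4:85827687-85827986, plus strand: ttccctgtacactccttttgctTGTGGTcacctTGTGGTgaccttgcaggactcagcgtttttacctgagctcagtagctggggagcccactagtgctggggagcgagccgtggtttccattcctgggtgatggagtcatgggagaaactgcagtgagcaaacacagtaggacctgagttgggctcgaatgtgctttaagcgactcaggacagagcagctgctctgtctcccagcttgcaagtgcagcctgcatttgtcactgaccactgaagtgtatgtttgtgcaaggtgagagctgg
KIAA1217 inner start, chr10:24466281-24466580, plus strand: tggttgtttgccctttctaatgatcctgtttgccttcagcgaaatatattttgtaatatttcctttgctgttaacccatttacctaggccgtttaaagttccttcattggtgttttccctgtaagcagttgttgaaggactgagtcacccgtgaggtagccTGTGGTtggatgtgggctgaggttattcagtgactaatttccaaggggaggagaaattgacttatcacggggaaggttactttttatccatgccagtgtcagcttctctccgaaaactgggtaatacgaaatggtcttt
KCNMA1 inner start, chr10:77350712-77351011, minus strand: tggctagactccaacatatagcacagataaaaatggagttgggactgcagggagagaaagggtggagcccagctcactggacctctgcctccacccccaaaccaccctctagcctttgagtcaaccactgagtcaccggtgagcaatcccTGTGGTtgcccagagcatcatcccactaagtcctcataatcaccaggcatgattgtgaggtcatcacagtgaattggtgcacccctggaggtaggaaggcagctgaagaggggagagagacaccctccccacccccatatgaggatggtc
GSE1 inner start, chr16:85613072-85613371, plus strand: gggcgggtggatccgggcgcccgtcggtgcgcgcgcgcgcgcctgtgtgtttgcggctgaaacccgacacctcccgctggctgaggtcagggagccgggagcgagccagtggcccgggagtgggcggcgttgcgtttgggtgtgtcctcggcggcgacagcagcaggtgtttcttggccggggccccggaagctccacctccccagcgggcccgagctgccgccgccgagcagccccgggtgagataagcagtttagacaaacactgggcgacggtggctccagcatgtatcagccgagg

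The RUNX2 window had 4 matches to TGTGGT, counted from its first base at 60, 164, 267 and 275, and 1 to TGCGGT at 283. Only 4 of the 33725 listed windows held 4 or more TGTGGT. The RUNX2 window was picked for having most matches, so this count is a description only. RUNX2 is the bone-forming member of the RUNX family, and its start lies in the interior of SUPT3H, which codes for a subunit of a histone acetyltransferase complex. The peak in the RUNX2 window spanned chr6:45328144-45328229, 49.8 kb from the 5′ end of SUPT3H. It had a pileup of 20 extended ChIP tags (exact Poisson interval 12.2 to 30.9) and a fold enrichment of 6.56. The nearest match, at base 60, lay 31.5 bp from the summit, at the edge of the peak. All other matches of the window lay beyond the end of the peak. Fold enrichment is the pileup over the local background, each after adding 1.

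The ARHGAP24 window had TGTGGT at bases 23 and 34, the nearer 19.5 bp from the summit, and its peak reached 17 tags and a fold enrichment of 5.62. In KIAA1217 the single match, at base 162, lay 24.5 bp from the summit of a peak of 25 tags with a fold enrichment of 6.92. In KCNMA1, which codes for a calcium-activated potassium channel, the match at base 151 lay 51.5 bp from the summit of a peak of 16 tags with a fold enrichment of 4.49. The GSE1 window had no match to any of the 4 motifs, and its peak had 15 tags and a fold enrichment of 5.00. Over the 9 peaks with a window, the 4 with TGTGGT had 16 to 25 tags, the 2 with TGCGGT alone had 17 and 24, and the 3 with neither had 12, 14 and 15. The pileup intervals overlap, such as 9.15 to 26.0 at 16 tags in KCNMA1 and 8.40 to 24.7 at 15 tags in GSE1. TGCGGT was added after seeing the data, and a link of motif and height was not tested.

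Of the 9 peaks, 4 had TGTGGT in their window, 6 had TGTGGT or TGCGGT, and 4 had TGANTCA. For background, TGTGGT occurred in 13.1% of all 33725 windows and in 35.6% of the 433 windows that held any summit of the list (Wilson interval 31.2 to 40.2). TGANTCA occurred in 7.67% of all windows and in 11.5% of those with a summit, and GGAATG in 14.0% and 17.3%. TGCGGT occurred in 7.31% of all windows and in 37.2% of those with a summit (32.8 to 41.8). Among the 11 windows at summits inside very long genes, TGTGGT occurred in 6, TGCGGT in 3, TGANTCA in 6 and GGAATG in 2. These 11 include 2 pairs of windows that overlap, so they are fewer than 11 independent pieces of sequence, and letters in such a window are a description and not a shown binding site.

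Most very long genes had at least 1 peak, but fewer peaks per length than shorter genes. A peak lay in the interior of 221 of the 303 genes, or 72.9% (Wilson interval 67.7 to 77.6), and 82 had none. Over all 19126 protein-coding genes the share was 17.6%, and it moved with length, from 4.03% of genes under 20 kb to 60.6% of genes of 200 to 500 kb. It was 74.7% (177 of 237) at 500 kb to 1 Mb and 66.7% (44 of 66) at 1 Mb or more. A longer gene offers more sequence to hold a peak, so these shares are best read beside the densities.

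The density in very long genes was 0.271 peaks per 100 kb (exact Poisson interval 0.251 to 0.292), from 677 peaks in 250.1 Mb of interior. In shorter protein-coding genes it was 0.564 (0.549 to 0.580), from 5225 peaks in 926.2 Mb. Outside protein-coding genes, from the first to the last gene of each chromosome, it was 0.422 (0.412 to 0.432). That sequence keeps the 1 kb next to each gene, while the interiors leave out 1 kb at their ends, and assembly gaps were not removed from it. The ratio of very long to shorter genes was 0.480 (exact conditional interval 0.442 to 0.520), and that to sequence outside protein-coding genes was 0.642 (0.592 to 0.695). The interiors of very long genes were thus the sparser of each pair by more than the counting error. Neighbouring peaks are not independent of each other, so the true errors are wider than these intervals.

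Density fell with length from class to class, though up to 200 kb the intervals of neighbouring classes overlapped. It was 0.698 under 20 kb (0.628 to 0.774) and 0.665 at 20 to 50 kb (0.622 to 0.710). At 50 to 100 kb it was 0.611 (0.576 to 0.647), and at 100 to 200 kb 0.556 (0.527 to 0.586). At 200 to 500 kb it was 0.476 (0.452 to 0.501). Within the very long genes it was 0.330 (0.302 to 0.359) at 500 kb to 1 Mb, from 525 peaks, and 0.167 (0.142 to 0.196) at 1 Mb or more, from 152 peaks. The intervals of these last 2 classes did not overlap, so the value for very long genes as a whole depends on where the length limit is set.

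**Figure D1:**
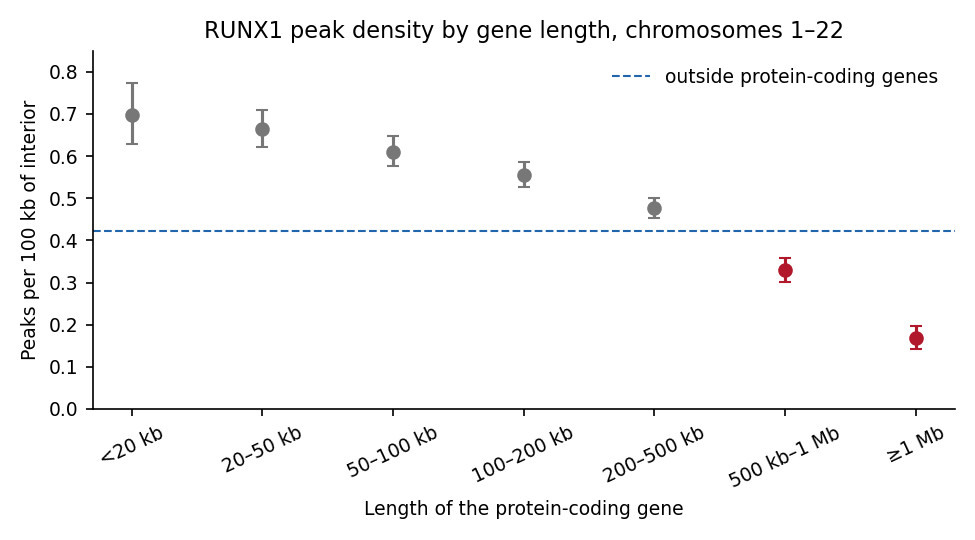
RUNX1 peaks per 100 kb of gene interior (vertical axis) for protein-coding genes of chromosomes 1 to 22 in 7 classes of length (horizontal axis), with exact 95% Poisson intervals as bars. Very long genes are in red, and both of their points, 0.330 and 0.167, lie under the dashed line at 0.422 for sequence outside protein-coding genes.

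Genes next to the limit of 500 kb had 0 to 2 peaks on both sides, too few to compare. Just inside it, PPP2R2B at 500.8 kb had 1 peak, and PPFIA2 at 501.4 kb and SPOCK3 at 501.6 kb had 0. Just outside it, DIAPH3 at 498.3 kb had 0, CPQ at 498.3 kb had 2 and ITPR2 at 497.8 kb had 1.

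The lower density was seen chromosome by chromosome. Very long genes lay on 21 of the 22 chromosomes, with none on chromosome 19, and in all 21 their density was under that of the shorter genes of the same chromosome. The interval of the ratio was wholly under 1 on 19 of them and included 1 on chromosome 4 (0.784, 0.560 to 1.08) and chromosome 15 (0.738, 0.475 to 1.10). The lowest ratio, 0.104 (0.00259 to 0.595) on chromosome 21, rested on 1 peak in 2 genes.

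Peaks were spread unevenly among the 303 genes. There were 62 genes with 1 peak, 54 with 2, 62 with 3 or 4, and 43 with 5 or more, and 6 genes had 10 or more. The mean was 2.25 peaks per gene, the median 2, and the variance 2.69 times the mean. The 20 genes with most peaks held 177 of 683 gene and peak pairs, or 25.9%, where the pairs outnumber the peaks because 6 peaks lay in more than 1 very long gene. Across the 303 genes the number of peaks did not follow length (Spearman's correlation 0.0136, Pearson's r −0.0092), and peaks per 100 kb fell with it weakly (Spearman −0.208, Pearson −0.229). These correlations are descriptions over genes of the same library.

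**Figure D2:**
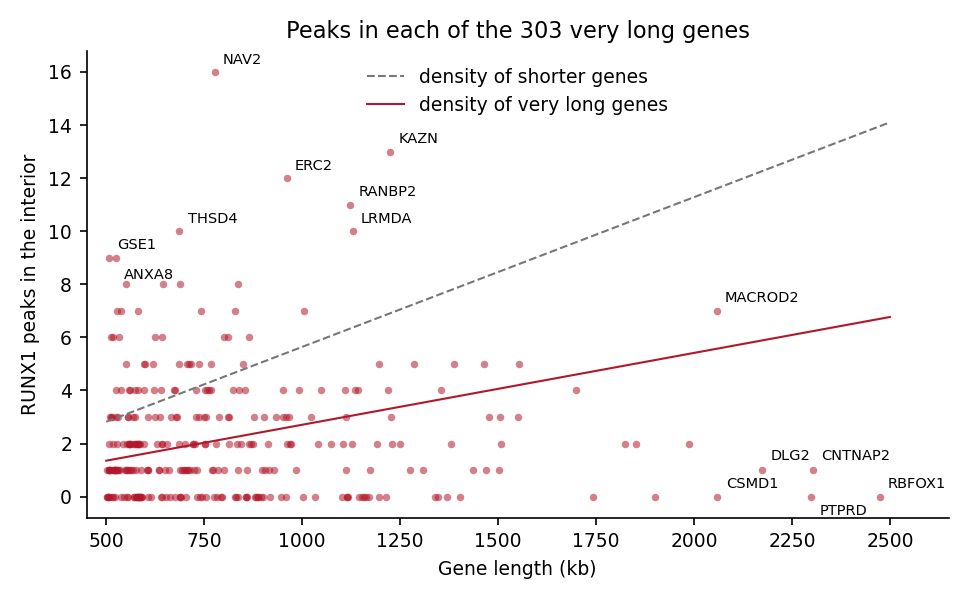
Number of RUNX1 peaks in the interior (vertical axis) of each of the 303 very long genes against gene length in kb (horizontal axis), 1 point per gene, with lines for the density of very long genes (0.271 per 100 kb) and of shorter genes (0.564 per 100 kb). NAV2, with 16 peaks, stands highest, and RBFOX1, PTPRD and CSMD1, with 0, are among the longest.

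NAV2 had most peaks, 16 in 776.4 kb of chromosome 11 (chr11:19345236-20121601), or 2.07 per 100 kb (1.18 to 3.36). It codes for neuron navigator 2, a cytoskeleton-associated protein. Its pileups ran from 11 to 41 tags with a median of 18, and its fold enrichments had a median of 5.93 and reached 8.82. The summits came in groups: 5 lay within 20 kb of each other, and the median gap between neighbouring summits was 9.44 kb. Its tallest peak, of 41 tags at chr11:19769787-19770144, stood over an input level 2.50 times the genome background, and its fold enrichment was 6.45. The input level is the local background that the peak caller used, recovered from pileup and fold enrichment.

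KAZN, which codes for kazrin, a protein of cell junctions in epithelia, had 13 peaks in 1225 kb (1.06 per 100 kb, 0.566 to 1.82), with pileups of 13 to 29 tags. ERC2, for a scaffold protein of the presynaptic active zone, had 12 in 960.2 kb (1.25, 0.647 to 2.19), with pileups of 15 to 27. Both had a median input level equal to the genome background. THSD4, for an extracellular matrix protein related to ADAMTS proteases, had 10 in 686.5 kb (1.46, 0.701 to 2.69), with pileups of 11 to 31, and LRMDA, a gene of melanocyte differentiation, had 10 in 1129 kb (0.888, 0.426 to 1.63). GSE1, which codes for a protein of histone deacetylase complexes, had 9 in 506.7 kb (1.78, 0.815 to 3.39). Its pileups were 36, 29, 26, 24, 21, 21, 20, 20 and 15 tags, and 8 of the 9 were above the median of the list, 18 tags.

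In 2 of the genes with most peaks, RANBP2 and ANXA8, several other genes share the interval, and SORCS2 holds 1 other gene with 0 of its peaks. These extents were taken as RefSeq gives them and were not checked. RANBP2, for a protein of the nuclear pore, had 11 peaks in 1123 kb (0.981, 0.490 to 1.76), but the table places 5 other protein-coding genes in that interval. Of the 11 peaks, 4 lay in SH3RF3, 2 in EDAR, the receptor for ectodysplasin, and 1 in RGPD5, a gene related to RANBP2 itself, which left 4 outside shorter genes. ANXA8, for a calcium-dependent membrane-binding annexin, had 9 peaks in 523.8 kb (1.72, 0.789 to 3.27), and its interval held 4 other protein-coding genes with 1 of the peaks. Over all very long genes, 20 of the 677 peaks lay also in a shorter protein-coding gene and 74 in a long noncoding RNA gene.

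The genes with most peaks also included SORCS2, for a sorting receptor of the VPS10 family, with 8 peaks in 550.3 kb (1.46, 0.630 to 2.87), and FSTL4, a follistatin-like gene, with 8 in 645.6 kb (1.24, 0.537 to 2.45). FSTL4 lay in a chromosome segment of raised input, and its median input level was 1.43 times the genome background. By density the leading genes further held SBF2, for a myotubularin-related protein without phosphatase activity, with 7 peaks (1.34), PRKCE, for protein kinase C epsilon, with 7 (1.31), and MECOM, for a zinc finger transcription factor of blood stem cells, with 7 (1.21). Of the 303 genes, 53 had a density above that over all shorter genes. The whole interval lay above it in 7, NAV2, KAZN, ERC2, THSD4, GSE1, ANXA8 and SORCS2, and below it in 65.

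**Figure D3:**
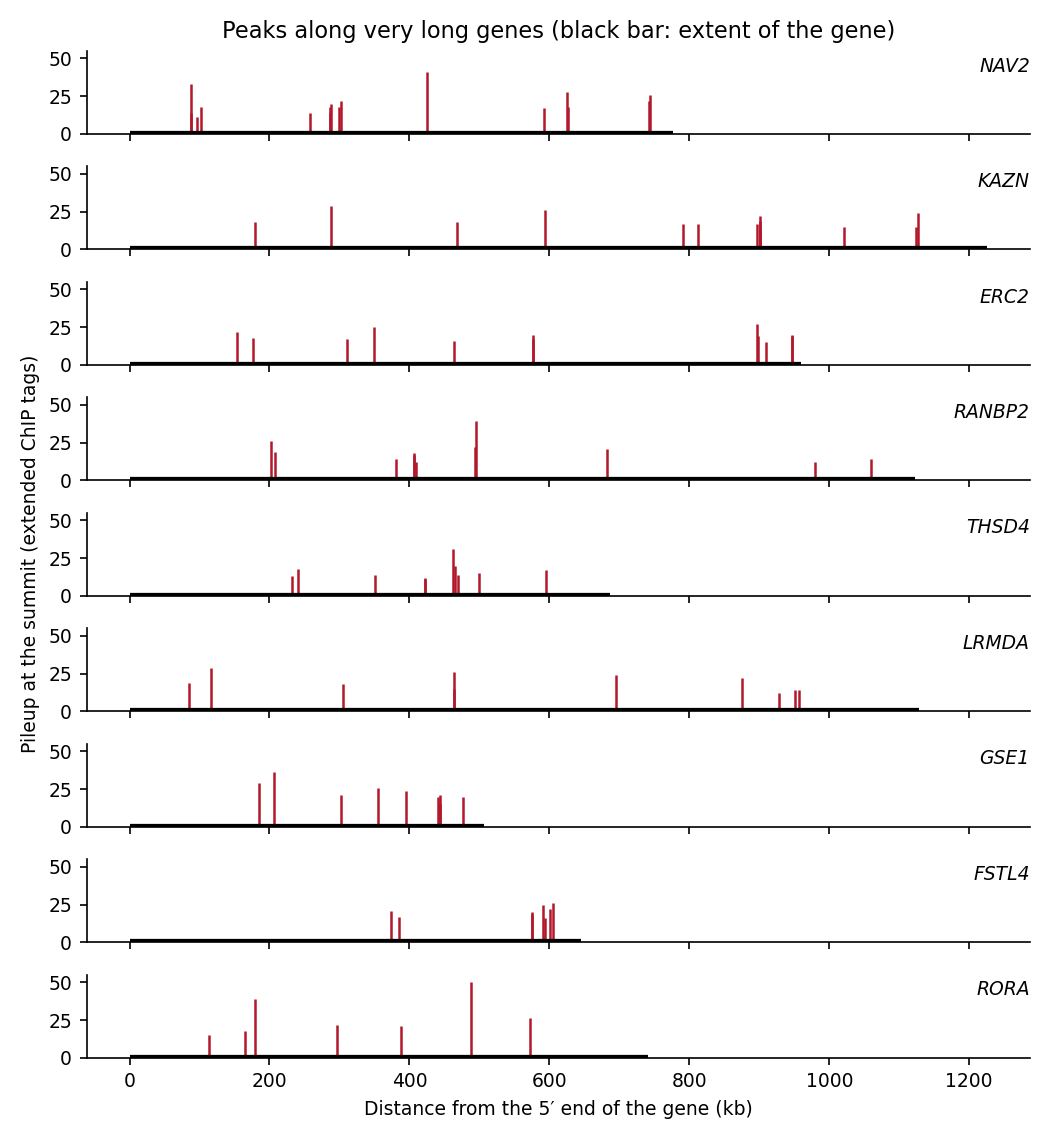
Peaks along the 8 very long genes with most peaks among those with a listed strand, and along RORA. The horizontal axis is distance from the 5′ end of the gene in kb and the vertical axis the pileup in extended ChIP tags. Each red line is 1 peak and the black bar is the gene. Peaks stand in groups in NAV2, while those of RORA are spread over the gene, with the tallest at 50 tags.

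Among the 10 longest genes, 4 had no peak. RBFOX1, for a splicing factor of neurons and muscle, had 0 in 2474 kb, which allows up to 0.149 per 100 kb. PTPRD, for a receptor phosphatase of synapses, had 0 in 2299 kb (up to 0.161). CSMD1, for a complement-regulating membrane protein, had 0 in 2060 kb (up to 0.179), and LRP1B, for a receptor related to the LDL receptor, had 0 in 1900 kb (up to 0.194). These upper limits all lie under the density over all very long genes.

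The other 6 of the longest had few peaks, with 1 exception. CNTNAP2, for a neural adhesion protein, had 1, of 15 tags, and DLG2, for a synaptic scaffold, had 1, of 19. EYS, a photoreceptor gene, CTNNA3, for an alpha-catenin, and PCDH15, for a protocadherin of hair cells, had 2 each. MACROD2, for a protein that removes ADP-ribose from other proteins, had 7 in 2058 kb (0.341 per 100 kb, 0.137 to 0.702), with pileups of 13 to 30. Of the 7, 6 lay 1669 kb or more from the 5′ end, and the other lay at 883.6 kb. Of all 66 genes of 1 Mb or more, 22 had no peak, with 30.6 Mb between them, and 10 had 5 or more.

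Where a gene lay moved with its peak count. In the 500 kb on either side of each gene, the median density was 0.1 per 100 kb beside genes without a peak, 0.4 beside genes with 1 to 4 and 0.5 beside genes with 5 or more. The median number of other protein-coding genes within that distance was 2.5, 5 and 8. Over the 303 genes, interior density followed flank density with a Spearman correlation of 0.389 and a Pearson correlation of 0.396, and the number of neighbouring genes with 0.375 and 0.344. These are descriptions with no test, since neighbouring genes share sequence and all points share 1 library.

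There were exceptions in both directions. Of the 82 genes without a peak, 24 had none in either flank, PTPRD, CSMD1 and LRP1B among them, while RBFOX1 had 4 flank peaks. Of the 43 genes with 5 or more, 3 had no flank peak: MYO16, for a myosin, AUTS2, for a regulator of transcription in neurons, and PDE4D, for a cyclic AMP phosphodiesterase, with 5 peaks each. These 3 were named after their values were seen. A background below the genome-wide level cannot be seen in this list, so gene copies lost from these cells and a lack of binding cannot be told apart.

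The very long genes were read by what they code for, from 6 lists that cover 160 of the 303 genes, 9 of them in more than 1 list. For comparison, 72.9% of all 303 genes had a peak, and their density was 0.271 per 100 kb. Genes of cell junctions, polarity and the cytoskeleton, which join cells and shape them, had a peak in 34 of 36 (94.4%, Wilson interval 81.9 to 98.5). They held 110 peaks, or 0.331 per 100 kb (0.272 to 0.399). NAV2 led this list, followed by FRMD4A, for a polarity protein, with 8 peaks (1.17 per 100 kb), and KAZN. The 2 without a peak were CDH12, for a cadherin, and ARHGAP15, for a Rac-regulating protein.

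Genes of neural adhesion and synapse organisation, which guide axons and join synapses, had a peak in 20 of 43 (46.5%, 32.5 to 61.1), with 63 peaks and 0.143 per 100 kb (0.110 to 0.183). SORCS2 and SEMA5A, for a semaphorin, led with 1.46 and 1.18 per 100 kb, and PTPRD and CSMD1 were the longest with none. The intervals of these lists, which cover counting error only, did not overlap in share or in density. The lists were written with earlier results of these data known, and the difference was not tested. NAV2 alone held 16 of the 110 junction peaks, and the junction list also holds genes with neural roles, such as DLG2 and NAV2 itself. Some genes for synaptic proteins, such as ERC2 and RIMS2, are in no list. The values of both lists therefore depend on which genes were listed. The neural list held 17 genes of 1 Mb or more and the junction list 11. Among genes under 1 Mb the densities were 0.250 (0.184 to 0.331) and 0.463 (0.367 to 0.576), with a peak in 15 of 26 neural genes and 24 of 25 junction genes. The median number of neighbouring genes was 2 for the neural list and 4 for the junction list, and the part of that difference in the densities was not tested.

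The other lists lay between these. Ion channels and glutamate receptors had a peak in 10 of 19 genes and 0.193 per 100 kb (0.131 to 0.274). GRID1, for a glutamate receptor of the delta type, led with 5 peaks, and DPP10 and DPP6, for potassium channel partners, were the longest with 0. Growth factor, kinase and cyclic nucleotide signalling genes had a peak in 15 of 24 and 0.282 (0.212 to 0.369), with PRKCE and STK3, a kinase of the Hippo pathway (5 peaks, 0.838), highest. ERBB4, a receptor for neuregulins, was the longest of that list with 0, in 1163 kb. Both intervals held the value for all very long genes.

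Transcription and RNA regulators had a peak in 26 of 30 genes (86.7%, 70.3 to 94.7) and 0.290 per 100 kb (0.225 to 0.367). MECOM led, followed by RORA, for a nuclear receptor, with 7 peaks in 741.0 kb (0.947), while RBFOX1 and SOX5, for a transcription factor of cartilage and neurons, were the longest with 0. Genes at common fragile sites had a peak in 12 of 17 (70.6%), near the share over all very long genes. Their density was 0.164 per 100 kb (0.116 to 0.225). In that list 11 genes are 1 Mb or more, RORA and AUTS2 had the highest densities, and LRP1B and IMMP2L, for a mitochondrial inner membrane peptidase, were the longest with 0. The 143 genes in no list had 0.322 (0.288 to 0.359), with a peak in 110 (76.9%). That density is close to the 0.331 of the junction list, and that share is near the one over all very long genes.

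**Figure D4:**
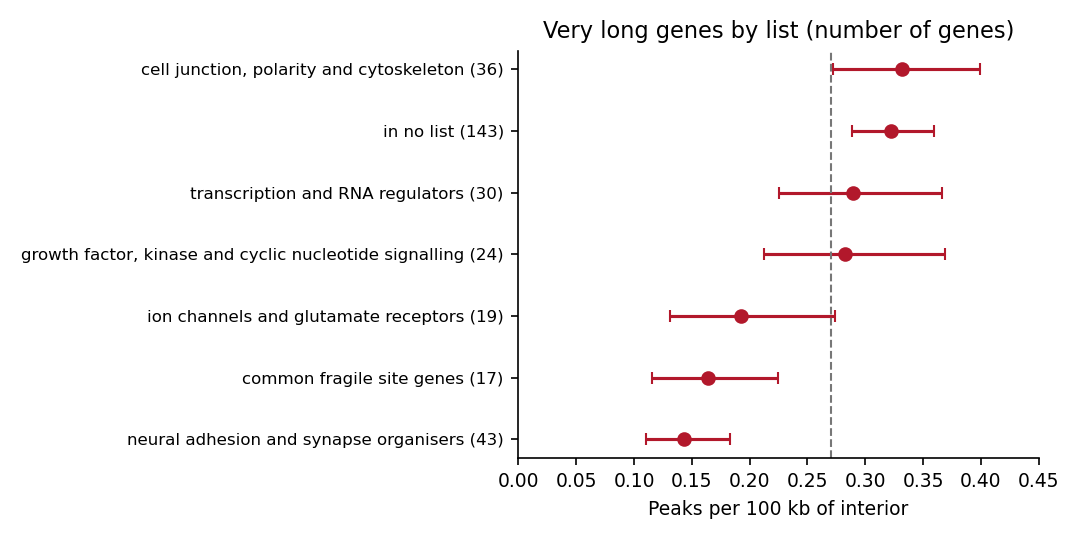
RUNX1 peaks per 100 kb of interior (horizontal axis) for the very long genes of 6 lists and those in no list, with the number of genes in brackets. Points are densities, bars are exact 95% Poisson intervals, and the dashed line is all very long genes (0.271). Neural adhesion genes lie lowest at 0.143, and junction, polarity and cytoskeleton genes highest at 0.331, close to the genes in no list at 0.322.

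Peaks inside very long genes were about as strong as the rest. Their median pileup was 18 tags (quartiles 15 and 22) against 18 (15 and 23) in the 12690 other peaks of chromosomes 1 to 22. Their median fold enrichment was 5.13 (4.35 and 6.56) against 5.06, their median width 156 bp against 153, and their median −log10 q 5.90 in both. Fold enrichments of at least 10 were seen in 28, or 4.14% (Wilson interval 2.88 to 5.91), where the share over all peaks of chromosomes 1 to 22 was 3.86%, so the share is near its background. Their median input level was 1.06 times the genome background against 1.11, and 47 of the 677, or 6.94%, stood at an input level of 2 times or more, against 8.57% of all peaks of chromosomes 1 to 22. The highest pileup was 65 tags. Among the others the highest was 148, the most that the peak caller's settings allow, and the RUNX1 gene held a peak of that height.

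**Figure D5:**
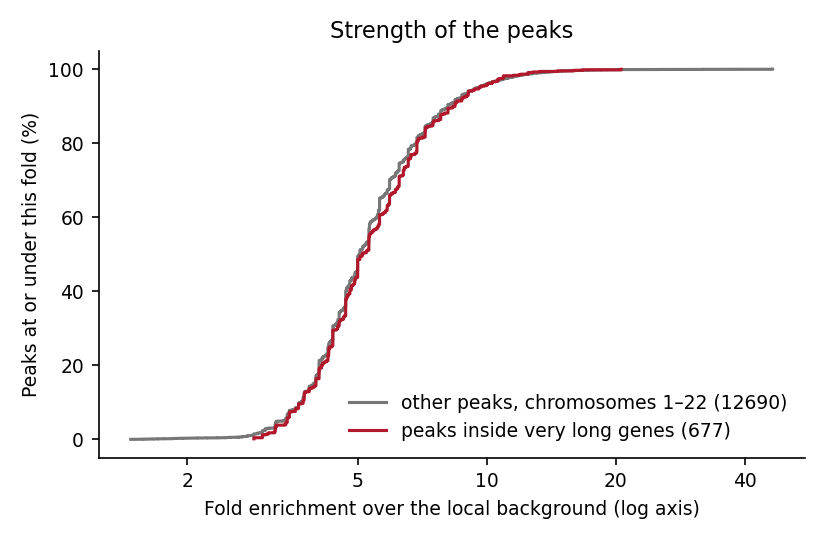
Share of peaks at or under each fold enrichment (vertical axis, %; horizontal axis, fold enrichment on a log scale) for the 677 peaks inside very long genes and the 12690 other peaks of chromosomes 1 to 22. The lines lie close together, with medians of 5.13 and 5.06, and only the other peaks go past 20.6.

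The strongest of the 677 by −log10 q was in the ANXA8 interval, at chr10:47605956-47606392, and it ranked 16 in the whole list. It had 65 tags (50.2 to 82.8), a fold enrichment of 20.6 and an input level at the genome background. It lay also in the long noncoding RNA gene LINC02675, and the ANXA8 interval holds 4 other protein-coding genes, so the peak cannot be assigned to ANXA8. RIMS2, for an active zone protein of synapses, followed with 63 tags, a fold enrichment of 16.7 and a width of 682 bp. CTNND2, for delta-catenin, had 54 tags and a fold enrichment of 14.6 at chr5:10976023-10976305, 928.3 kb from the 5′ end and near the far end of the gene. Of the 677, 6 were among the first 100 of the list by −log10 q and 53 among the first 1000, close to their 5.06% of the peaks of chromosomes 1 to 22.

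RORA had the next strongest, at chr15:60740724-60741209, with 50 tags (37.1 to 65.9) and a fold enrichment of 15.9, 488.3 kb from its 5′ end. Its other 6 pileups were 39, 26, 22, 21, 18 and 15 tags. SMYD3, for a lysine methyltransferase, had 59 tags at an input level 2.09 times the genome background and a fold enrichment of 10.7, so it ranked under peaks with fewer tags. CELF2, for a splicing regulator, had 49 tags and a fold enrichment of 13.3, and VPS13B, for a lipid transfer protein of the Golgi, had 53 and 11.9. The remaining peaks of the first 10 were a second one in ANXA8 with 50 tags, 1 in CREB5, for a transcription factor of the CREB family, with 48, and 1 in RBFOX3, for the neuronal splicing factor NeuN, with 40. The 9 genes that held these 10 peaks had both high and low counts. ANXA8 had 9 peaks, RORA 7, SMYD3 4, and RIMS2 and CTNND2 3 each, while CELF2, VPS13B and CREB5 had 2 each and RBFOX3 had only that peak.

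Peaks lay in every part of the genes, with a larger share in the last part before the 3′ end. The strand is listed for 251 of the 303 genes, with 575 peaks. From the 5′ to the 3′ end, 5 equal parts of these genes held 113, 112, 97, 113 and 140 peaks. The last held 24.3% (Wilson interval 21.0 to 28.0), an interval just above an even share. It was singled out as the highest of 5 parts after the counts were seen. Neighbouring peaks are not independent, so the true error is wider, and whether the parts differ was not tested. Close to the start, at 1 to 10 kb, the density was 0.354 per 100 kb (0.153 to 0.698), from 8 peaks, and at 100 to 200 kb it was 0.243 (0.186 to 0.312). Close to the 3′ end, at 1 to 10 kb, it was 0.398 (0.182 to 0.756), and at 50 to 100 kb 0.414 (0.309 to 0.543). The intervals of these zones overlapped, though only barely between 50 to 100 kb from the 3′ end and 100 to 200 kb from the start. Overlap of intervals is not a test, and a gathering close to either end was not tested. The rule leaves out the first and last 1 kb, where 5 further summits lay.

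Some neighbouring peaks of a gene were close. The same gaps were not computed for shorter genes or for the whole list, so such spacing is not shown to be particular to very long genes. Of 462 gaps between neighbouring summits, the median was 68.2 kb (quartiles 15.9 and 177), 100 or 21.6% were under 10 kb, 36 were under 1 kb and 179 were over 100 kb. The longest, 899.5 kb, was between the 2 peaks of PCDH15. In 17 genes, 3 or more peaks lay within 20 kb. CLSTN2, for a calsyntenin of synapses, had 6 peaks with a median gap of 1.09 kb, and GRID1 had 5 with 2.74 kb. Merging peaks within 1 kb of each other gave 636 in place of 677.

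Segments of raised input held 20 of the genes and 52 of the peaks. They run from 140 Mb on chromosome 1, 120 Mb on chromosome 5 and 100 Mb on chromosome 8 to the chromosome ends, limits taken from an earlier description of these data, and FSTL4, SMYD3 and RIMS2 lie in them. The density there was 0.352 per 100 kb (0.263 to 0.461) against 0.266 (0.245 to 0.287) in the other 283 genes. The median pileup was 21 tags against 18, the median input level 1.51 times the genome background against 1.02, and the median fold enrichment 4.87 against 5.20. Input level and pileup were higher together in these segments, while fold enrichment was not. The part of the raised input in the density there was not tested.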

How the data were processed

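RUNX1 ChIPseq was measured in 1 ChIP library against 1 input library, which were assigned by the antibody in their labels. The authors deposited 1 peak list. Per the file headers it was made with MACS 2.1.2 at a q-value limit of 0.05, with 54 bp tags extended to 74 bp, duplicates removed, and backgrounds over 1 and 10 kb. The submitters' processing notes name Bowtie2 and hg38, so positions were read as GRCh38. The deposited pileup is a signal, the number of extended tags at the summit, and it cannot exceed 148. The deposited fold enrichment is a ratio to the local background, and the deposited q is a −log10 value of the peak caller. The libraries held 89501295 and 94686274 tags before filtering.

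The input level was recovered from pileup and fold enrichment and divided by the genome background, 2.20 tags. Genes and extents came from the GRCh38.p14 RefSeq table, and start windows with strand from the matching RefSeq windows. Strand was found for 251 of 303 very long genes. Densities are summits per 100 kb of merged interior, with exact 95% Poisson intervals. Ratios have exact conditional (Clopper-Pearson) intervals and shares Wilson intervals. No test between samples was possible. Named genes are RUNX1, the 10 with most peaks, the 10 densest with at least 3 peaks, the 10 longest, those with the 10 highest −log10 q, and for each list the densest and the longest without a peak. Genes named otherwise are said to be so, are at the length limit, have the closest peaks or hold a printed window. The members, lists and rules were chosen with earlier results of these data known. A motif search around all summits needs a genome sequence and was not run. TGCGGT was added after seeing the data. Python 3.11.15, NumPy 2.4.6, pandas 2.3.3, SciPy 1.17.1 and matplotlib 3.10.9 were used, and the interval code was tested on simulated data.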

Additional observations from a re-analysis of the deposited data

How the results depend on the processing

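In all, 45 alternatives were computed over 6 results, and 39 stayed within the limits set for a change, none with a change of direction. Some of them could not move: leaving out the RUNX1 gene, which is not very long, could change only the ratio. Counting an overlap of any base left the 677 peaks as they were. Requiring a fold enrichment of at least 5 left 348 peaks in very long genes and 0.139 per 100 kb, by construction, with the ratio to shorter genes at 0.477. Genes of at least 1 Mb gave 0.167 per 100 kb and a ratio of 0.316, and genes of at least 300 kb gave 0.345 and 0.588, so both values depend on the length limit while the ratio stayed under 1. The settings added after seeing the data were leaving out peaks in shorter nested genes, which gave 657 peaks and a ratio of 0.472, and the second RUNX spelling. No paired analysis was possible because the series has a single ChIP library and a single input, and no library could be left out. The planned motif search within 100 bp of all summits was not run, since no genome sequence was used here. Low pileups limit the list: a weak peak and none cannot be told apart, and 0 peaks in a gene is an upper limit.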
